A study of Mus musculus with 2 samples.

Results

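Fc receptors bind the constant part of antibodies and couple them to leukocytes. The 8 Fc receptor genes described here, of 31053 genes in the count table, were taken by name. They are the activating IgG receptors Fcgr1, Fcgr3 and Fcgr4, the inhibitory IgG receptor Fcgr2b, the shared signalling chain Fcer1g, the neonatal receptor Fcgrt, the IgE receptor Fcer2a and the IgM receptor Fcmr. All 8 had counts. Their level was measured as CPM, the UMIs of a gene per 1000000 UMIs of a cell cluster, in each of 20 clusters of aortic leukocytes. A UMI is a molecular tag that marks 1 captured RNA molecule.

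The cells came from the aortic arch and thoracic aorta of Apoe-/- mice, which have no apolipoprotein E and form atherosclerotic plaques on a western diet. The treated group received nt-LNA at 30 mg/kg each week for 4 weeks (4871 cells, n = 1 library) and the control group received saline on the same schedule (2742 cells, n = 1 library). The mice of both groups carried the same Apoe deletion and ate the same diet, and neither the number pooled per library nor their age and sex was stated in the labels. LNA usually stands for locked nucleic acid, a modified nucleotide of antisense oligonucleotides, and the labels do not say what nt stands for. Live cells with the leukocyte protein CD45 and without the T cell protein CD3 were sorted. The counts pool both libraries within a cluster, so receptor levels could not be compared between treatments, and only the cells of each library could.

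An IgG receptor of the activating kind has little signalling capacity of its own. It sits in the membrane with a dimer of the FcR gamma chain, the product of Fcer1g, whose ITAM motif is phosphorylated by Src family kinases and then recruits the kinase Syk. Fcgr2b carries an inhibitory motif, the ITIM, that recruits the phosphatase SHIP1 (Inpp5d) and opposes this signal. In atherosclerosis, IgG and IgM against oxidised lipoproteins form complexes that macrophages and B cells meet in the vessel wall. Fcgrt pairs with beta-2 microglobulin (B2m), binds IgG in acidic endosomes and returns it to the surface, Fcer2a (CD23) is a lectin-type receptor of IgE on mature B cells, and Fcmr binds IgM.

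The 7613 cells gave 70206506 UMIs, and the 8 receptors took 115816 of them (0.165%). Cluster totals lay between 212515 and 12985745 UMIs, and the mean depth between 1278 UMIs per cell in cluster 5 and 24869 in cluster 19. Clusters 2, 5, 14 and 16 combined at most 3935 UMIs per cell with at least 7.24% mitochondrial transcripts, against at most 4.29% in the other clusters. Ptprc, the gene of CD45, was present in all clusters (295 to 2080 CPM), and Cd3e, a part of CD3, lay between 10.7 CPM in cluster 4 and 1331 CPM in cluster 5, so transcripts of the protein used to remove T cells were present. The labels call the cells macrophages, while the deposited cluster names are Macrophages, B cells, NK cells and T cells. The 2 libraries shared 2 cell barcodes. By marker genes, cluster 7 was neutrophil-like, 15 nonclassical monocyte-like, 8 dendritic cell-like, 17 type 1 dendritic cell-like, 18 plasmacytoid dendritic cell-like, 3 NK cell-like, 1 and 12 B cell-like, 4 plasma cell-like, 5 T cell-like, 11 and 16 ILC2-like, and 6 and 14 proliferating-like. Cluster 10 was foamy (lipid-laden) macrophage-like, with 3 such markers among its 50 leading genes, 2 of them, Spp1 and Gpnmb, among the leading 10. It had as many classical monocyte markers among the 50, with Vcan among the 10. Cluster 2, deposited as B cells, was B cell-like too, with 7 of 9 B cell markers among its 50 leading genes. Clusters 0 and 19, which share high complement C1qa (1965 and 2070 CPM), and clusters 9 and 13 got no name. Cluster 0 had all 10 macrophage markers over 2-fold higher (6701 CPM summed, against 35.8 to 7444 CPM in the other clusters). It also had 5 vessel wall genes (Myh11, Acta2, Tagln, Cnn1 and Col1a1) among its 50 leading genes, and among its leading 10 as many of these (Myh11 and Cnn1) as basophil genes (Mcpt8 and Prss34). The summed level of the 8 vessel wall markers was 552 CPM in cluster 0 with none at 0, against 17.9 to 169 CPM in the other clusters, and their part in its Fc receptor levels was not tested. Names rebuilt in this way can differ from those of the study.

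The 250 bases before the RefSeq start of the 4 IgG receptors are shown for GAGGAA, a motif of the myeloid factor PU.1. The 3 activating receptors, whose levels went together over the clusters (r between 0.82 and 0.87), held GAGGAA there and the inhibitory Fcgr2b did not. The sequences are from RefSeq on GRCm38.p6, while the submitters' processing notes name mm9, so the coordinates belong to GRCm38.p6. All 8 genes matched, with 11 start sites. Capitals mark a match to GAGGAA, the PU.1 motif, which on the reverse strand reads TTCCTC, or to TTCNNNGAA, the interferon gamma site, both searched on both strands. Each run ends at the base before the start.
Fcgr1 (chr3:96293970-96294219, minus strand): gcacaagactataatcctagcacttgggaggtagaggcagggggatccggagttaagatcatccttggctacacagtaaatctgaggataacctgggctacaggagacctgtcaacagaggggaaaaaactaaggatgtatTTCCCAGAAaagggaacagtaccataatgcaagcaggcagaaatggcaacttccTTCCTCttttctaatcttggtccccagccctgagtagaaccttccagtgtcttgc
Fcgr3 (chr1:171059404-171059653, minus strand, the upstream of 2 starts): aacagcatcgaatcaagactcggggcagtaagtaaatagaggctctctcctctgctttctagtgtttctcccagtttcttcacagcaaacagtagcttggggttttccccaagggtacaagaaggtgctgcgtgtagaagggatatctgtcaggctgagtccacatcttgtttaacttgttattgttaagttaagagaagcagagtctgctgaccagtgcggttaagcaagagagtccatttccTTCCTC
Fcgr4 (chr1:171018676-171018925, plus strand): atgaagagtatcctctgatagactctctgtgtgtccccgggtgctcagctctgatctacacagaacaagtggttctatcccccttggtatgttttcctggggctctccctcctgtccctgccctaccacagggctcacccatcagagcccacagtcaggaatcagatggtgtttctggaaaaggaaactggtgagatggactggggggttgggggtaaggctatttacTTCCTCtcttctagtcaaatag
Fcgr2b (chr1:170976072-170976321, minus strand): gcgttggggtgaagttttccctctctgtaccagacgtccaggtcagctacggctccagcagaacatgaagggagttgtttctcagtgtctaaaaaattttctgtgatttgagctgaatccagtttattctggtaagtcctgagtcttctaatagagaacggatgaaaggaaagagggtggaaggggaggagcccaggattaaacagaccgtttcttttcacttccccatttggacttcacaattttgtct
GAGGAA began at base -55 of Fcgr1, -6 of Fcgr3 and -22 of Fcgr4, always on the reverse strand, and Fcgr1 alone among the 8 held TTCNNNGAA, at base -109. Fcmr held GAGGAA at base -36, and the windows of Fcgr2b, Fcer1g, Fcgrt and Fcer2a held neither motif. With the 3 activating receptors, Fcer1g, without GAGGAA, had r between 0.74 and 0.90, and Fcgr2b between 0.66 and 0.70. Fcmr, with GAGGAA, had r between -0.03 and -0.02, and any link between motif and level was not tested. Of 27025 genes with a window, 25.9% held GAGGAA and 8.13% held TTCNNNGAA, so a match to GAGGAA is common. A match is a run of letters and not a shown binding site. The shorter run GGAA within GAGGAA was not searched for, and it occurs in the windows of Fcgr2b and Fcer1g. The lack of GAGGAA therefore does not show that a PU.1 site was absent.

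Fcgr1, the high-affinity IgG receptor, lay on chromosome 3 and had 3287 UMIs. Its level ran from 0 in clusters 2 and 16, over a median of 4.94 CPM across the clusters, to 243 CPM (95% interval 231 to 256) in cluster 10. In clusters 2 and 16, 0 UMIs allow levels of up to 1.96 and 14.1 CPM (3 counts of the total). The step between the highest cluster and the next was wide, since cluster 0 followed at 78.9 CPM and the intervals of clusters 0 and 15 (63.2 CPM) overlapped, as did those of 8 (51.3 CPM), 7 (47.6 CPM) and 19 (34.3 CPM) with their neighbours. Clusters 17 (14 CPM) and 6 (10 CPM) came next, and every other cluster stayed at or under 6.42 CPM. Cluster 10 stood 14.2-fold (13.5 to 14.9) above the mean of the other 19 clusters, 17.1 CPM, and held 46.1% of all Fcgr1 UMIs. Against the other clusters deposited as Macrophages, without the proliferating-like cluster 6, the ratio was 5.77. All intervals cover counting error only. Because counts are summed per cluster, more cells with a transcript and more transcript per cell cannot be told apart.

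Fcgr3, the low-affinity activating receptor that NK cells also use, had 7716 UMIs and was highest in cluster 19, at 379.8 CPM (335 to 429). Its lowest level was 1.36 CPM in cluster 11 and its median 11.1 CPM. Clusters 10, 0 and 7, at 298, 280.1 and 275 CPM, followed and could not be separated by their intervals. Cluster 15 lay lower, at 129 CPM. Clusters 8 (49 CPM) and 3 (43.6 CPM) overlapped each other. The 4 clusters deposited as B cells all stayed at or under 7.74 CPM. Cluster 19 held 27 cells and 3.3% of the Fcgr3 UMIs, while cluster 0 held 47.1%. The ratio of cluster 19 to the mean of the others (63.1 CPM) was 6.01 (5.3 to 6.8), but 11.8 when levels were taken as UMIs per cell and 2.47 against the other clusters deposited as Macrophages without cluster 6.

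Fcgr4, an activating receptor of intermediate affinity for IgG2a and IgG2b, had 2069 UMIs. It had 0 UMIs in clusters 14 and 16, had a median of 5.85 CPM and reached 310.1 CPM (281 to 342) in the nonclassical monocyte-like cluster 15. Cluster 7 (76.1 CPM), 19 (76 CPM), 10 (62.5 CPM) and 0 (53.4 CPM) formed a group whose neighbours overlapped, above cluster 8 at 16.1 CPM. No other cluster exceeded 11.1 CPM. Cluster 15 stood 17.4-fold (15.8 to 19.2) above the mean of the others, 17.8 CPM, and 7.19-fold above the other clusters deposited as Macrophages without cluster 6. The 0 UMIs in clusters 14 and 16 allow up to 3.85 and 14.1 CPM. The 3 activating receptors thus had their highest levels in 3 different clusters.

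Fcgr2b, the inhibitory receptor, had 9506 UMIs and was found in both myeloid and B cell clusters. Its level lay between 5.05 CPM for cluster 13 and 322 CPM (308 to 337) for cluster 10, with a median of 64.2 CPM. Cluster 0 was next at 260.1 CPM. Clusters 19 (203 CPM), 8 (195 CPM), 2 (178 CPM), 15 (174 CPM) and 7 (166 CPM) followed with overlapping neighbours. These 5 clusters include the deposited B cell cluster 2 and lie above cluster 17 (116 CPM) and cluster 12 (83.1 CPM). The B cell-like cluster 1 had 67.1 CPM and the plasma cell-like cluster 4 had 61.3 CPM. Fcgr2b in cluster 10 was 3.66-fold (3.5 to 3.82) above the mean of the others (88 CPM), and 1.98-fold above the other clusters deposited as Macrophages without cluster 6. B cells and myeloid cells use different splice forms of Fcgr2b, which counts per gene do not separate.

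**Figure D1:**
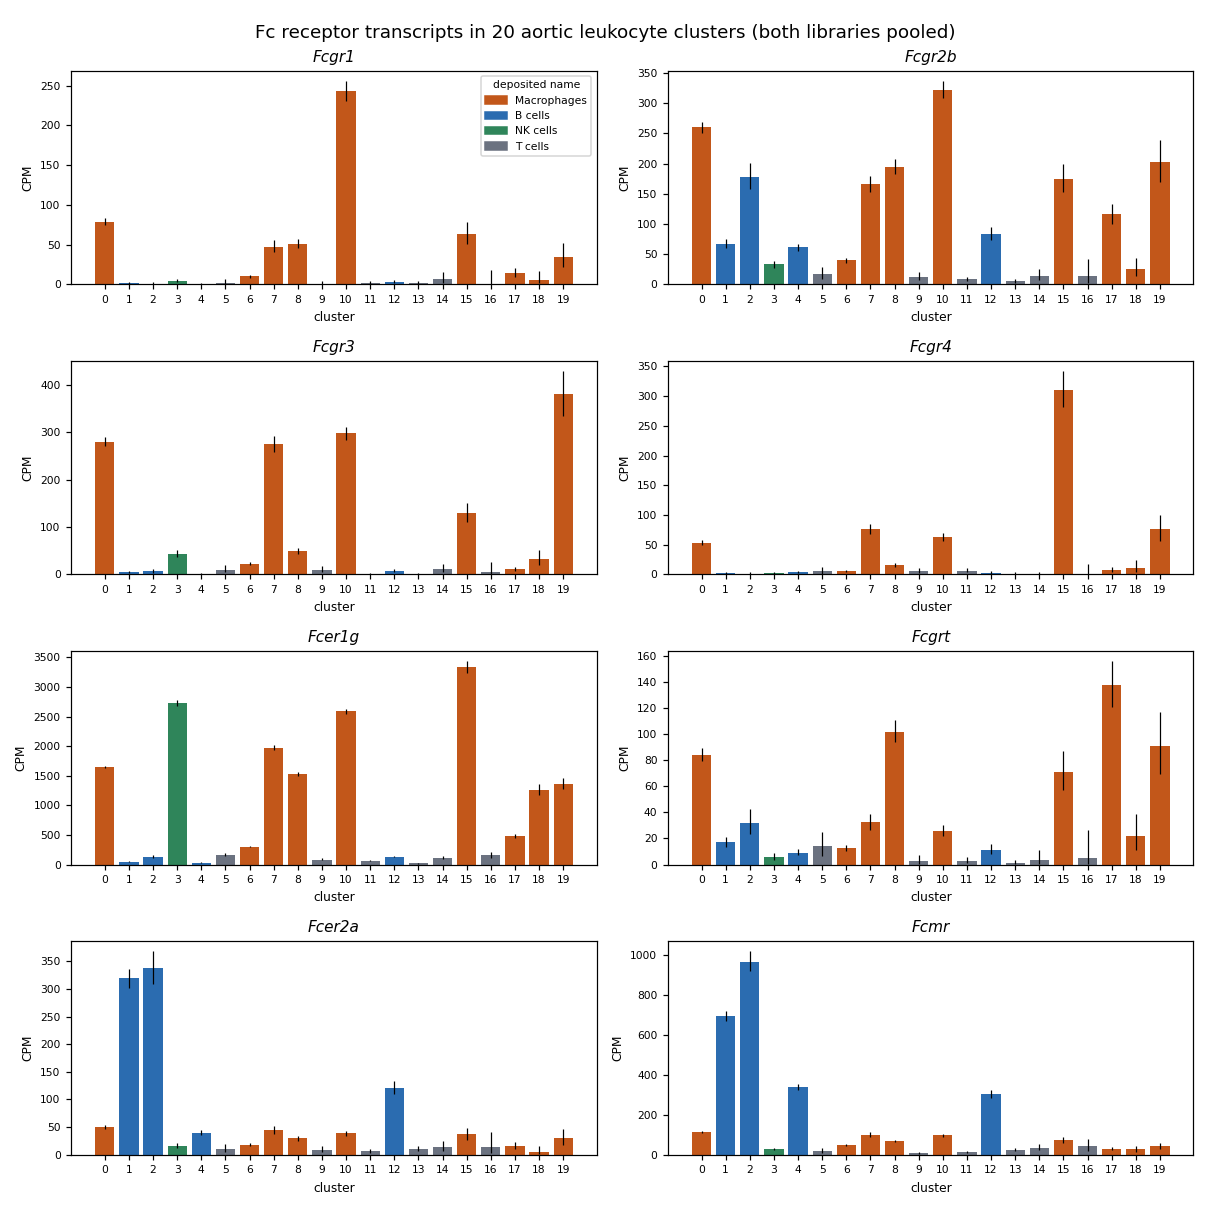
Level of each of the 8 Fc receptor genes (CPM, vertical axis) in clusters 0 to 19 (horizontal axis), both libraries pooled. Bars are coloured by the deposited cell type name and error bars are exact Poisson 95% intervals. Fcgr1 peaks in cluster 10 (243 CPM), Fcgr4 in cluster 15 (310.1 CPM) and Fcmr in cluster 2 (967 CPM), while Fcer1g is high in cluster 3 (2729 CPM) as well as in clusters 15 (3335 CPM) and 10 (2589 CPM).

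The balance of inhibitory and activating transcripts differed among the clusters. Fcgr2b made up 95.8% (92.7 to 97.8) of the UMIs of the 4 IgG receptors in cluster 2, 91.1% in cluster 4, 90.2% in cluster 1 and 86.4% in cluster 12. B cells are known to use Fcgr2b as their IgG receptor. Its share was 78.7% (73.3 to 83.5) for cluster 17, type 1 dendritic cell-like, and 62.6% (60.3 to 64.9) for cluster 8, dendritic cell-like. Among the remaining clusters of high receptor level, it was 38.7% (37.6 to 39.7) in cluster 0, 34.8% (33.6 to 36.1) in cluster 10, 29.4% (27.5 to 31.5) in cluster 7, 29.2% (25.1 to 33.6) in cluster 19 and 25.8% (22.9 to 28.8) in cluster 15. The intervals of clusters 7, 19 and 15 overlapped. Cluster 13 had 19 and cluster 16 had 4 such UMIs, too few for a share. Tagging at the 3' end counts molecules without regard to transcript length, but capture may differ between genes, so shares are compared between clusters and not read as protein ratios.

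The make-up of the activating UMIs differed as well. Fcgr4 supplied 61.8% of them in cluster 15, against 13% in cluster 0 and 10.4% in cluster 10. Fcgr1 supplied 40.3% in cluster 10 and 12.6% in cluster 15. Fcgr3 supplied 77.5% in cluster 19, 69% in cluster 7, 67.9% in cluster 0 and 86.5% in the NK cell-like cluster 3. Left out of the sum, Fcgr3 moved the Fcgr2b share to 66.3% in cluster 0, 51.3% in cluster 10 and 31.8% in cluster 15, and cluster 15 remained the lowest of the 18 clusters with enough UMIs in both calculations.

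**Figure D2:**
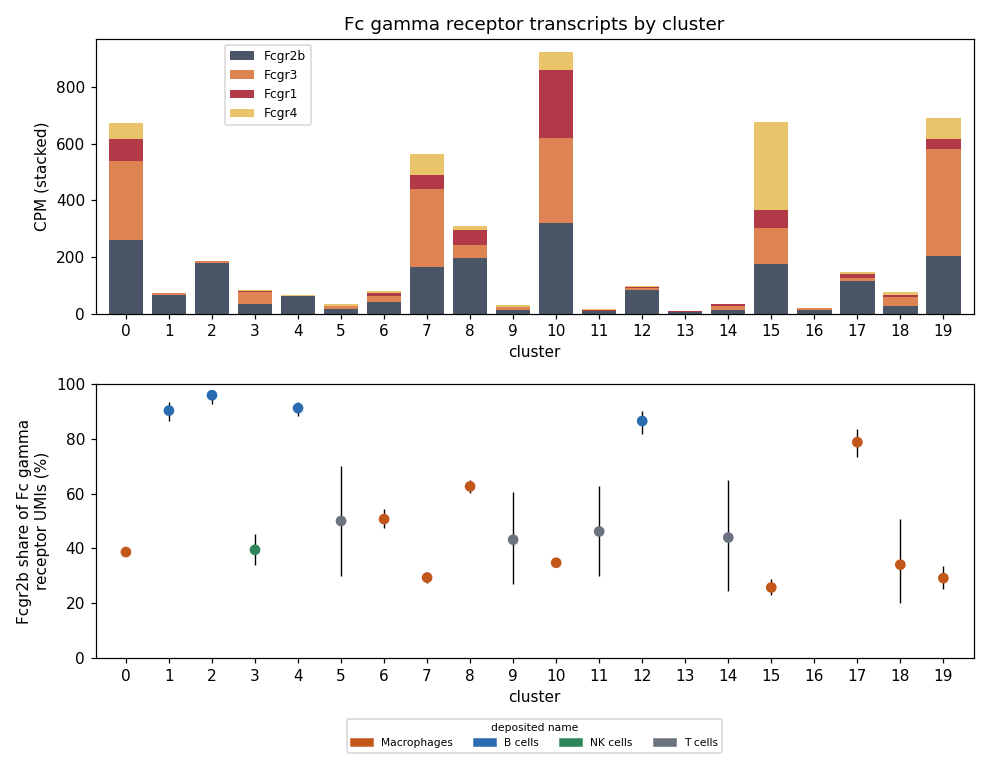
Stacked CPM of the 4 IgG receptors (upper panel, vertical axis) and the share of their UMIs that came from the inhibitory Fcgr2b (lower panel, %, with exact Clopper-Pearson 95% intervals) by cluster. The clusters deposited as B cells lie between 86.4% and 95.8%, and cluster 15, in which Fcgr4 dominates, lies at 25.8%; clusters 13 and 16 are not drawn in the lower panel.

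Fcer1g, the signalling chain, had 74835 of the UMIs. Its level was lowest in cluster 13 (20.2 CPM), had a median of 233 CPM and was highest in cluster 15 (3335 CPM, 3237 to 3435). The NK cell-like cluster 3 was second at 2729 CPM (2676 to 2783), above cluster 10 at 2589 CPM (2550 to 2630). Clusters 7 (1976 CPM), 0 (1646 CPM), 8 (1530 CPM) and 19 (1364 CPM) came next, each below the last by more than its interval. Cluster 18, the plasmacytoid dendritic cell-like one, overlapped cluster 19 with 1264 CPM. Cluster 17 had 475 CPM and cluster 6 had 301 CPM, and the clusters deposited as B or T cells stayed at or under 165 CPM. Cluster 15 was 4.27-fold (4.15 to 4.4) above the mean of the others (781 CPM), and 2.15-fold above the other clusters deposited as Macrophages without cluster 6. In UMIs per cell the order changed: cluster 10 led with 45 per cell, cluster 15 had 33.2 and cluster 3 had 16.

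The chain was not in a fixed proportion to the IgG receptors it serves. Cluster 3 had 54.2 Fcer1g UMIs per UMI of Fcgr1, Fcgr3 and Fcgr4 together, and clusters 0, 7, 10, 15 and 19 had 2.78 to 6.64. Cluster 8 had 13.1 and cluster 18 had 25.4. The FcR gamma chain also serves lectin receptors on myeloid cells and natural cytotoxicity receptors on NK cells. Of 16 such partner genes listed, 8 had at least 20 UMIs and 6 were not in the table under these symbols. In cluster 3, 2 of the 8 exceeded the mean level elsewhere by over 2-fold, namely Ncr1 (636 CPM, log2 ratio 6.81) and Klrk1 (637 CPM, log2 ratio 4.92), receptors of NK cells of which Klrk1 is better known to signal through Hcst and Tyrobp, and 5 were over 2-fold lower (median log2 ratio -2.16, against -0.34 over all tested genes). In cluster 10, 5 were over 2-fold higher and 2 lower (median 1.45, against -0.29), among them the fungal and damage sensors Clec4e (346 CPM) and Clec4n (326 CPM). In cluster 15, 2 were higher, Clec4e (315 CPM) and Clec4n (135 CPM), and 3 lower. The log2 ratios add 0.5 CPM to both sides. For these and the following lists, the share of all tested genes that were over 2-fold higher was 5.83% in cluster 3, 7.37% in cluster 10 and 7.46% in cluster 15, and the share over 2-fold lower was 31.5%, 23% and 29.4%.

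The receptor UMIs of cluster 3 were set beside those of 1 myeloid gene. Lyz2, an abundant transcript of macrophages and neutrophils, had 152 CPM there, and per 100 Lyz2 UMIs cluster 3 had 28.7 Fcgr3 UMIs (23.9 to 34.2). The clusters deposited as B or T cells had between 1.21 (cluster 11) and 6.12 (cluster 14), and cluster 0 had 4.88. For Fcer1g, cluster 3 had 1796 UMIs per 100 Lyz2 UMIs and cluster 0 had 28.7. Fcgr1 and Fcgr4 in cluster 3 were low, 16 and 9 UMIs, or 4.36 and 2.45 CPM. Per 100 Lyz2 UMIs, cluster 3 had 2.87 of Fcgr1, 1.61 of Fcgr4 and 21.7 of Fcgr2b, against 1.38, 0.931 and 4.53 in cluster 0. Whether the low counts of the activating receptors in the B and T lineage clusters came from RNA free in the droplets was not tested. The source of the receptor UMIs of cluster 3 was not tested either.

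Fcer1g was set beside Tyrobp, the other myeloid and NK cell ITAM adaptor, whose level over the clusters was most like its own (Pearson r 0.958 over 20 clusters). Per 100 Tyrobp UMIs there were 130.4 Fcer1g UMIs in cluster 15, 127 in cluster 0, 111 in cluster 10 and 108 in cluster 3. Cluster 7 had 79.4, cluster 17 had 56.7 and cluster 18 had 26.7 (24.5 to 29.1), the last with the highest Tyrobp level of all (4729 CPM). Of the 6 ITAM adaptors listed, 3 were over 2-fold higher in cluster 3, the third being Hcst (622 CPM), and 2 were higher in each of clusters 10 and 15, where these were Fcer1g and Tyrobp.

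Fcgrt, the heavy chain of the neonatal receptor, followed another order. It had 2757 UMIs, a lowest level of 0.918 CPM (cluster 13) and a median of 15.5 CPM. The highest was 138 CPM (121 to 156), found for cluster 17, whose cells were type 1 dendritic cell-like. Cluster 8, also dendritic cell-like, had 102 CPM, and clusters 19 (90.8 CPM), 0 (84.2 CPM) and 15 (70.9 CPM) came next with overlapping neighbours. Neutrophil-like cluster 7 (32.4 CPM), cluster 2 (32.1 CPM) and cluster 10 (25.9 CPM) lay well under these. Cluster 10, which led for Fcgr1 and Fcgr2b, was thus eighth for Fcgrt. Cluster 17 was 4.81-fold (4.23 to 5.45) above the mean of the others (28.7 CPM), and 2.26-fold above the other clusters deposited as Macrophages without cluster 6. Its partner B2m was highest in the ILC2-like cluster 16 (3957 CPM) and had 1083 CPM in cluster 17, so that per 100 B2m UMIs cluster 17 had 12.7 Fcgrt UMIs, cluster 8 had 6.29, cluster 0 had 5.42 and cluster 10 had 1.24.

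Fcer2a, the IgE receptor of B cells, had 4148 UMIs. It ran from 5.53 CPM in cluster 18, over a median of 23.5 CPM, to 337 CPM (309 to 368) in cluster 2, which overlapped cluster 1 at 319 CPM (302 to 336). Cluster 12 had 121 CPM (109 to 134). Plasma cell-like cluster 4, although deposited as B cells, had 40.1 CPM, below cluster 0 (50.5 CPM) and with an interval that overlapped those of clusters 7 (44.2 CPM) and 10 (38.5 CPM). Cluster 2 was 7.74-fold (7.09 to 8.44) above the mean of the others (43.6 CPM). Cluster 2 had 2296 UMIs per cell, and in UMIs per cell cluster 1 led instead, with 1.89 per cell. With mitochondrial and ribosomal protein genes left out of the totals, cluster 1 led too. Of the 551 runs of 50 bases in the last 600 bases of Fcer2a, 38 (6.9%) also occur in transcripts of other genes, so part of its reads may have been ambiguous. The other 7 members had 0 such runs.

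Fcmr, the IgM receptor, had 11498 UMIs and ran from 8.81 CPM in cluster 9, over a median of 45.7 CPM, to 967 CPM (919 to 1018) in cluster 2. Clusters 1 (694 CPM), 4 (339.8 CPM) and 12 (304 CPM) followed, each separated from the next by its interval. Fcmr was thus higher in the plasma cell-like cluster 4 than in the B cell-like cluster 12, and Fcer2a lower. Myeloid clusters 0 (113 CPM), 7 (101 CPM) and 10 (98.1 CPM) came next, and cluster 7 overlapped both others, which did not overlap each other. Cluster 2 was 8.69-fold (8.25 to 9.15) above the mean of the others (111 CPM). In UMIs per cell cluster 1 led, with 4.11 per cell, and cluster 2, with 2.22 per cell, stood 1.99-fold above the mean of the others.

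The Fcmr level tracked that of Cd79a, a part of the B cell antigen receptor, in myeloid and lymphoid clusters alike. Cd79a had 5662 and 3376 CPM in clusters 2 and 1, and 674, 644 and 507 CPM in clusters 0, 7 and 10, with no cluster at 0. Per 100 Cd79a UMIs there were 13.2 (cluster 12) to 20.5 (cluster 1) Fcmr UMIs in the 13 clusters with at least 50 Fcmr UMIs, with a median of 16. Cluster 0 had 16.7, cluster 7 had 15.6 and cluster 10 had 19.3. The summed level of 9 B cell markers was 1745, 1623 and 1255 CPM for clusters 0, 7 and 10, against 5444 to 14541 in the 4 clusters deposited as B cells, and none of the 9 was at 0 in these 7 clusters. The Fcmr UMIs of the myeloid clusters therefore moved with B cell transcripts, whose part in the Fcmr level was not tested. Fcer2a varied more, between 1.79 per 100 Cd79a UMIs in cluster 4 and 9.52 in cluster 3, with 7.5 in cluster 0 and 7.6 in cluster 10 near the 5.96 of cluster 2 and the 9.44 of cluster 1. Fcgr2b did not keep such a ratio, with 63.6 in cluster 10 and 38.6 in cluster 0, against 1.99 in cluster 1 and 3.15 in cluster 2.

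**Figure D3:**
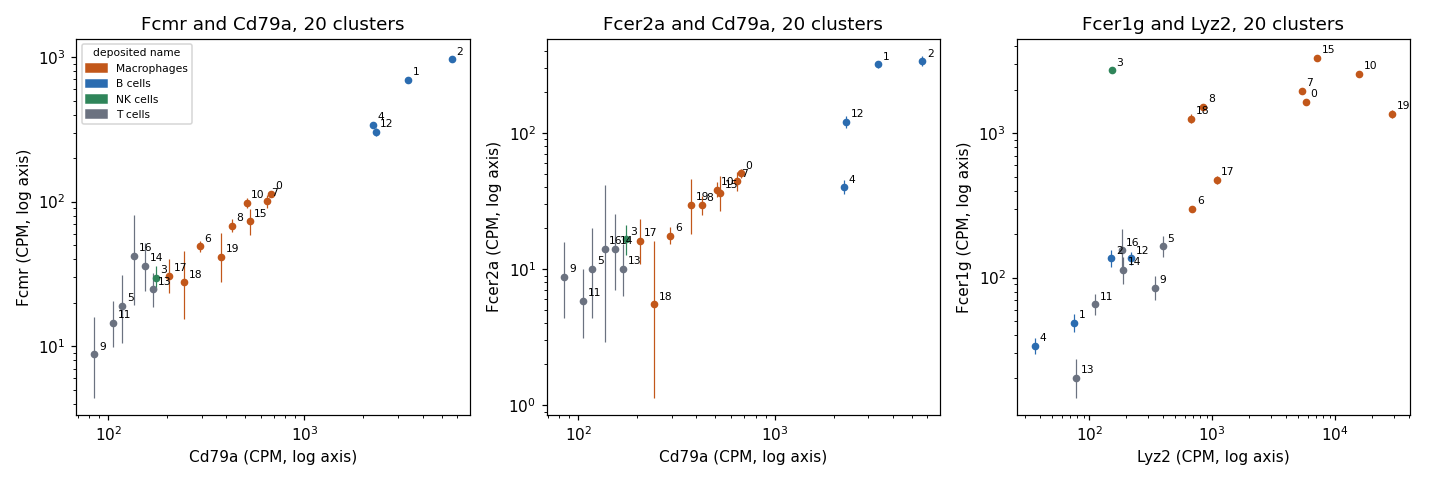
Fcmr, Fcer2a and Fcer1g (vertical axes, CPM, log axes) against an abundant transcript of B cells (Cd79a, left and middle) or myeloid cells (Lyz2, right; horizontal axes, CPM, log axes) in the 20 clusters, numbered and coloured by deposited name, with Poisson 95% intervals. Fcmr keeps 13.2 to 20.5 UMIs per 100 Cd79a UMIs over 13 clusters, Fcer2a is low for its Cd79a in cluster 4 (1.79), and Fcer1g of the NK cell-like cluster 3 stands at 1796 per 100 Lyz2 UMIs.

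Counted per cluster, the members exceeded the mean level of the other clusters by over 2-fold mostly in clusters deposited as Macrophages. Cluster 10 had 5 of 8 (Fcgr1, Fcgr2b, Fcgr3, Fcgr4 and Fcer1g), where 7.37% of the 14202 genes with at least 20 UMIs were that high, with a median log2 ratio of 1.33 over the members, against -0.29 over all genes. Cluster 15 had 4 (Fcgr1, Fcgr4, Fcer1g and Fcgrt; 7.46% of all genes), cluster 0 had 4 (Fcgr1, Fcgr2b, Fcgr3 and Fcgrt; 8.21%) and cluster 19 had 4 (Fcgr2b, Fcgr3, Fcgr4 and Fcgrt; 9.06%). Cluster 7 had 3 (Fcgr3, Fcgr4 and Fcer1g; 7.28%), cluster 8 had 2 (Fcgr2b and Fcgrt; 6.26%) and cluster 17 had 1 (Fcgrt; 6.24%). Fcer2a and Fcmr were the 2 members that high in clusters 1 (3.7%), 2 (11.9%) and 12 (3.7%), and Fcmr was the 1 in cluster 4 (3.77%). Cluster 3 had Fcer1g (5.83%).

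All 8 members were over 2-fold lower in clusters 5, 6, 9, 11, 13, 14 and 16. These are the T cell-like, ILC2-like and proliferating-like clusters and clusters 9 and 13, which got no name. The share of all tested genes that low was 29.5% in cluster 5, 28.2% in cluster 6, 30.1% in cluster 9, 33.8% in cluster 11, 28.3% in cluster 13, 30.1% in cluster 14 and 41.3% in cluster 16. In cluster 3, 6 of 8 were that low (31.5% of all genes), all but Fcgr3 and Fcer1g, and in cluster 15 Fcmr was (29.4%), while in cluster 10 none was (23% of all genes). Cluster 6 was deposited as Macrophages but had 7830 CPM of summed T cell markers. In UMIs per cell the counts of members over 2-fold higher became 0 in clusters 2 and 3, 1 in cluster 7 and 2 in cluster 15. The counts rose to 3 in cluster 8, 5 in cluster 0 and 6 in cluster 19, which then led ahead of cluster 10 with 5. With the mean of the other clusters deposited as Macrophages, less cluster 6, as reference, they became 0 in clusters 0, 7 and 8, 1 in clusters 10 and 19 and 2 in cluster 15. No test was made, since the clusters were formed from the same expression values and each treatment had 1 library.

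Signalling genes downstream of the receptors were taken as lists. Of 25 activating signalling genes, 9 were over 2-fold higher in cluster 15 and 2 lower (median log2 ratio 0.35, against -0.33 over all genes). The Src family kinase Fgr (302 CPM, log2 ratio 2.63) had its highest level there, in the cluster that also led for Fcgr4 and Fcer1g. In cluster 10, 4 were higher and 3 lower (median 0.16), and in cluster 3, 4 were higher and 11 lower (median -0.28, against -0.34). Syk itself was highest in cluster 2 (426 CPM), where B cell receptors use it, and had 264 CPM in cluster 15, 176 CPM in cluster 10 and 68.3 CPM in cluster 3. Rac2, a GTPase of the phagocyte oxidase and the member of the list with the most counts, had 497 CPM in cluster 15, 347 CPM in cluster 10 and 969 CPM in cluster 3. Lat, an adaptor of T cells, had 109 to 120.1 CPM in these 3 clusters and was highest in cluster 9 (1006 CPM).

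Of 10 inhibitory signalling genes, 3 were over 2-fold higher in cluster 15 and 1 lower (median 0.75). The phosphatase Ptpn6 (SHP-1) had 447 CPM there and the adaptors Dok3 and Dok1 had 116 and 50.3 CPM. In cluster 10, where Fcgr2b was highest, none of the 10 was over 2-fold higher or lower (median 0.17, against -0.29), and Ptpn6 had 269.8 CPM. Inpp5d, the SHIP1 that Fcgr2b recruits, was highest in cluster 2 (534 CPM) and had 155 CPM in cluster 10 and 171 CPM in cluster 0. In cluster 3, 2 were higher, the adaptor Dok2 (212 CPM) and the ubiquitin ligase Cblb, and 1 was lower, Dok3 (8.99 CPM).

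Spi1, which encodes PU.1, was highest in cluster 15 (685 CPM) and had 459 CPM in cluster 7, 404 CPM in cluster 10 and 244 CPM in cluster 0. Of the 9 genes of the PU.1 and interferon gamma list, Spi1 was the 1 over 2-fold higher in cluster 10, with Ifng lower (4.01 CPM), and the 1 in cluster 15, with Irf8 (146 CPM) and Ifng (0 CPM) lower. In cluster 3, 4 were higher, including Ifng, the cytokine itself (344 CPM), and Irf8 (1393 CPM), and 2 were lower, Spi1 (25.9 CPM) and the receptor chain Ifngr2 (7.9 CPM). Fcer1g, the member high in cluster 3, had no match to either motif in its window.

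Each tested ligand gene had its highest level in cluster 4, 2 or 1, which were deposited as B cells. Of 8 tested heavy chain and joining chain genes, 6 were over 2-fold higher in cluster 4 (3.77% of all tested genes): Ighm at 9453 CPM, Jchain at 2597 CPM, Igha at 1820 CPM, Ighg2b at 610.2 CPM, Ighg1 at 511 CPM and Ighg3 at 12.5 CPM. Ighe had under 20 UMIs. In cluster 2, 4 were higher (11.9% of all tested genes) and 3 lower (31.8%), with Ighm at 6633 CPM, and with the highest levels of Ighg3 (38 CPM) and of Ighg2c, an IgG2 subclass gene (19.6 CPM, against 0.717 CPM in cluster 4). Ighd, the IgD heavy chain gene of mature B cells, had 791 CPM in cluster 1 and 769.5 CPM in cluster 2, against 140.2 CPM in cluster 4. In clusters 10, 15 and 3 none was higher, and 4, 7 and 8 were over 2-fold lower. Cluster 4, which led for Ighg1 and Ighg2b, had 61.3 CPM of Fcgr2b and at most 3.73 CPM of each activating IgG receptor.

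Of the other Fc receptors and receptor-like genes, 9 of 11 had at least 20 UMIs. In cluster 0, 3 were over 2-fold higher (8.21% of all tested genes). Fcrls, a receptor-like gene of resident macrophages and microglia, had 245 CPM there, 40.9-fold above the mean of the others. The other 2 were the IgE receptor chains Fcer1a (14 CPM, 8.07-fold) and Ms4a2 (3.23 CPM). Cluster 0 also held the basophil and mast cell gene Mcpt8 (45.6 CPM, at most 3.32 CPM elsewhere). The summed level of the 8 basophil and mast cell markers there was 293 CPM with none at 0, against 6.59 to 775 CPM in the other clusters, and the part of such cells in the Fcer1a and Fcer1g levels of cluster 0 was not tested. In cluster 2, 4 were over 2-fold higher and 3 lower (11.9% and 31.8% of all tested genes), with the B cell genes Fcrla (448 CPM) and Fcrl5 (69.4 CPM) and the transport receptor Pigr (17 CPM).

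The genes closest to each member were picked by Pearson correlation of log2(CPM + 1) over 20 clusters among 10684 genes with at least 200 UMIs. Their likeness to the member follows from that choice. The points share both libraries, their depths and the RNA in the suspension, so r is a description. The closest genes were Snx24 (0.944), Ptpro and Ms4a6d for Fcgr1, Ctss (0.925) and Rassf3 for Fcgr2b, Cd14 (0.948), Xdh and C5ar1 for Fcgr3, and Abcd2 (0.948), Pilrb2 and Pilrb1 for Fcgr4. After Tyrobp, Cx3cr1 (0.945) and Myo1f were closest to Fcer1g. For Fcgrt they were Pirb (0.903), Plbd1 and Gm6377, for Fcer2a Ighd (0.970), Cd55 and Cr2, and for Fcmr the B cell genes Ms4a1 (0.982) and Cd79a. Among the members, r was 0.94 for Fcer2a and Fcmr, 0.90 for Fcgr3 and Fcer1g, 0.87 for Fcgr1 and Fcgr3 and 0.87 for Fcgr2b and Fcgrt. Fcgr2b also had r of 0.63 with Fcer2a and 0.57 with Fcmr, while the 3 activating receptors had r between -0.03 and 0.09 with both.

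Because levels could not be split by treatment, the libraries were compared by the cells in the clusters that supplied most UMIs of each receptor. Clusters 0 and 10 supplied 77.2% of Fcgr1, 71.2% of Fcgr3, 56.6% of Fcgr2b and 50.1% of Fcer1g UMIs. They held 731 cells of the nt-LNA library, 15% (14 to 16), and 568 cells of the saline library, 20.7% (19.2 to 22.3), a ratio of 0.724 (0.648 to 0.81). Clusters 0 and 8, which supplied 60.3% of Fcgrt, held 15.8% of nt-LNA cells and 19.9% of saline cells, a ratio of 0.796 (0.713 to 0.89). Cluster 8 alone had a ratio of 0.572 (0.465 to 0.704) and cluster 10 alone one of 0.401 (0.323 to 0.498). For cluster 0 alone, which is in both pairs, the interval of the ratio, 0.913 (0.799 to 1.04), included 1. With all clusters in the denominator, the ratios of both pairs lay under 1 beyond counting error. Without clusters 2, 5, 14 and 16 in the denominator they were 0.849 and 0.933, given without intervals, so counting error was not weighed there. Clusters 0 and 15, which supplied 53.2% of Fcgr4, held 13.4% of nt-LNA cells and 15.3% of saline cells, a ratio of 0.879 (0.776 to 0.996) that became 1.03 with the same clusters left out.

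On the B cell side, clusters 1, 2 and 4, which supplied 59.2% of Fcmr, held 27.4% of nt-LNA cells and 24.6% of saline cells, a ratio of 1.11 (1.01 to 1.22). Clusters 0, 1 and 2, which supplied 60.9% of Fcer2a, held 30% of nt-LNA cells and 31.5% of saline cells, and the interval of their ratio, 0.954 (0.876 to 1.04), included 1. Clusters 1 and 2 differed in direction: cluster 1 held 7.62% (6.89 to 8.4) of nt-LNA cells and 12.7% (11.5 to 14) of saline cells, and cluster 2, of few UMIs per cell, held 10.4% (9.6 to 11.3) of nt-LNA cells and 5.69% (4.85 to 6.62) of saline cells. With 1 library per treatment these intervals cover the counting of cells only, and treatment and library cannot be told apart. A share of cells says nothing of receptor transcripts per cell in either library.

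**Figure D4:**
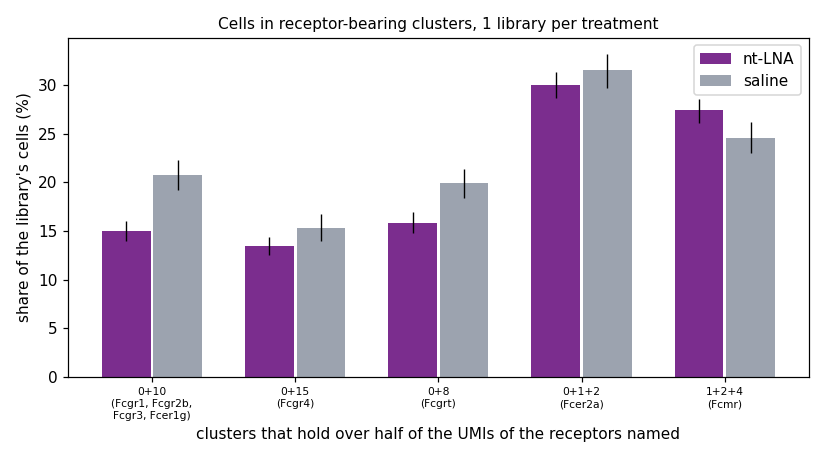
Share of the cells of each library (vertical axis, %) that lay in the clusters supplying most UMIs of the receptors named under each pair of bars, for nt-LNA (left bar) and saline (right bar), 1 library each, with exact Clopper-Pearson 95% intervals. The pair for clusters 0 and 10 stands at 15% and 20.7%, and the pair for clusters 1, 2 and 4 at 27.4% and 24.6%.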

How the data were processed

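Single-cell 3' libraries (10x Chromium, NovaSeq) were made from sorted aortic leukocytes, 1 per treatment. The submitters' processing notes list Cell Ranger 2.1.1, Seurat and the build mm9. The authors deposited whole-number UMI counts in which all cells of a cluster, from either library, are added up per gene (20 clusters), a table of cells with library and cluster, and a summary of cell counts per cluster, whose tallies differed by 0 from the cell table. A deposited table of rescaled values was not used. Cell filters, clustering settings and doublet removal were not stated in the labels. Doublets could not be called from counts summed per cluster.

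From the deposited counts, CPM was computed per cluster with exact Poisson 95% intervals, shares with Clopper-Pearson intervals and ratios of counts or shares with exact conditional intervals. The interval of a ratio to a mean of clusters carries the error of the leading cluster only. All cover counting error only. A level was compared with the unweighted mean of the other clusters, at a fold of 2 and for genes with at least 20 UMIs, and a count of 0 got a limit of 3 counts. With 1 library per treatment, no p-value was computed. Clusters were called X-like from at least 3 markers among the 50 leading genes with at least 50 UMIs, unless another list had as many among the leading 10, and neighbours in an order were read as separated where their intervals did not overlap. The members, gene lists and markers were chosen with earlier results of these data known. Named are the 8 members, of each other list the 2 genes with the most counts and the 2 with the largest absolute log2 ratio in the cluster described, the 3 genes most like each member, the yardsticks Lyz2 and Cd79a, and B2m, Tyrobp, Syk, Inpp5d and Ptprc. Other genes were named after their values were seen. Some genes that this rule takes are not reported here. Of 31053 symbols, 30464 matched GENCODE M21, including all 8 members. Gm38204 (3 UMIs) lies opposite Fcgr2b and Gm45669 (23 UMIs) opposite Fcgrt. Alternatives were UMIs per cell, totals without mitochondrial and ribosomal protein genes, leaving out clusters 2, 5, 14 and 16, a fold of 4, no filter on counts, the Fcgr2b share without Fcgr3 and, chosen after seeing the data, the other clusters deposited as Macrophages without cluster 6 as reference. Software was scipy 1.17.1, numpy 2.4.6 and pandas 2.3.3 under Python 3.11.15, with matplotlib 3.10.9 for plots, and the ratios were tested on simulated data.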

Additional observations from a re-analysis of the deposited data

How the results depend on the processing

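No paired analysis was possible because each treatment had 1 library. In UMIs per cell, the ratio to the mean of the others, kept for the cluster that led in CPM, was 18.1 for Fcgr1, 5.09 for Fcgr2b, 11.8 for Fcgr3, 11.3 for Fcgr4, 3.31 for Fcer1g, 6.34 for Fcgrt, 1.8 for Fcer2a and 1.99 for Fcmr. The members over 2-fold higher then fell to 0 in clusters 2 and 3, 1 in cluster 7 and 2 in cluster 15. They rose to 3 in cluster 8, 5 in cluster 0 and 6 in cluster 19. Without mitochondrial and ribosomal protein genes the ratios of Fcgr2b, Fcer2a and Fcmr were 3.46, 6.82 and 7.55, and the members numbered 4 in cluster 10. Without clusters 2, 5, 14 and 16 the ratios were 11.5 for Fcgr1, 3.33 for Fcgr2b, 4.88 for Fcgr3, 14 for Fcgr4, 3.51 for Fcer1g and 4.22 for Fcgrt. The members then numbered 1 in cluster 8, 2 in clusters 7 and 15, 3 in cluster 19 and 4 in cluster 10. The nt-LNA to saline ratios were 0.849 for clusters 0 and 10, 0.933 for 0 and 8 and, on the other side of 1, 1.03 for 0 and 15. That setting gives no value for Fcer2a and Fcmr, which lead in cluster 2. With only the clusters deposited as Macrophages, less cluster 6, as reference (chosen after seeing the data), the ratios were 5.77 for Fcgr1, 1.98 for Fcgr2b, 2.47 for Fcgr3, 7.19 for Fcgr4, 2.15 for Fcer1g and 2.26 for Fcgrt, and the members numbered 0 in clusters 0, 7 and 8, 1 in clusters 10 and 19 and 2 in cluster 15. At a fold of 4 they numbered 0 in clusters 3, 4, 8 and 12, 1 in clusters 0, 7 and 19 and 2 in clusters 10 and 15. Without Fcgr3, the Fcgr2b share was 66.3% in cluster 0, 95.7% in 1, 99.3% in 2, 82.9% in 3, 72.2% in 5, 71% in 6, 57.3% in 7, 74.3% in 8, 66.7% in 9, 51.3% in 10, 93.9% in 12, 68.8% in 14, 31.8% in 15, 84.8% in 17, 60.9% in 18 and 64.8% in 19. Of these, the shares of clusters 5 and 14 rest on few UMIs. Cluster 5 had 13 of Fcgr2b, 1 of Fcgr1 and 4 of Fcgr4, and cluster 14 had 11, 5 and 0. The cause of the shifts in this section was not tested. Leaving out the filter on counts could not change the 12 member counts, since every member had at least 2069 UMIs, so that setting tests nothing here. Cluster 16, with 212515 UMIs, limits low levels most, since 0 counts there allow up to 14.1 CPM.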
